A study of Mus musculus with 24 samples.

Results

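The genes described here are 9 transcription factors of the oligodendrocyte lineage, taken by name: Olig1, Olig2, Sox10, Sox8, Nkx2-2, Zfp488, Tcf7l2, Myrf and Nkx6-2. They are 9 of the 55359 genes in the count table, and all 9 passed the filter on low counts in every comparison. The cells were oligodendrocytes of C57Bl6J mice. They had been taken from the cortex of pups at postnatal days 5 to 7 with magnetic beads carrying an antibody to O4, a surface antigen of immature oligodendrocytes. After 3 days of differentiation, driven mainly by triiodothyronine (T3, the active thyroid hormone), wells were kept for a further 3 days with or without ethanol. Experiment 1 had 6 wells at 30 mM ethanol and 6 control wells at 0 mM, and experiment 2 had 6 wells at 10 mM and 6 control wells at 0 mM. All 24 wells share the strain, the sort and the T3 step. Each dose was used in 1 experiment, which the labels also give as a batch, so dose and experiment cannot be told apart. Control plates stood in an incubator of their own, and any effect of that incubator and of ethanol cannot be told apart. The labels call the wells biological replicates without naming separate cultures or animals, and the p-values measure the spread between these wells.

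Oligodendrocytes are specified and matured by a cascade of transcription factors. The basic helix-loop-helix proteins OLIG2 and OLIG1 set up and keep the lineage, and the SoxE proteins SOX10 and SOX8 bind the enhancers of lineage and myelin genes. NKX2-2, ZFP488 and TCF7L2 act while precursors leave the cell cycle and begin to differentiate, and MYRF, induced by SOX10, switches on myelin genes together with it. NKX6-2 is a homeodomain protein of mature oligodendrocytes.

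Promoter sequences are shown for the 3 factors that passed a test in one of the comparisons below and have an entry in the RefSeq promoter table. Each runs 5′ to 3′ over 250 bases before and 50 bases after the start site on GRCm38.p6. Capitals mark CANNTG, the E-box read by basic helix-loop-helix proteins such as OLIG2, and ACAAT or ACAAAG, core letters read by SOX proteins, searched on both strands. A match is a description of the letters.
Nkx2-2, chr2:147186353-147186652, minus strand: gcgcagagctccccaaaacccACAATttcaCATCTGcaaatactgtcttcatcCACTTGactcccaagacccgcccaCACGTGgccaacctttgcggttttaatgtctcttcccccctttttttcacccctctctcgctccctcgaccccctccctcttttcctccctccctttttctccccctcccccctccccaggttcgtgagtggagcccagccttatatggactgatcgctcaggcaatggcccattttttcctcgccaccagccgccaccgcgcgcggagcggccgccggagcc
Olig2, chr16:91225300-91225599, plus strand: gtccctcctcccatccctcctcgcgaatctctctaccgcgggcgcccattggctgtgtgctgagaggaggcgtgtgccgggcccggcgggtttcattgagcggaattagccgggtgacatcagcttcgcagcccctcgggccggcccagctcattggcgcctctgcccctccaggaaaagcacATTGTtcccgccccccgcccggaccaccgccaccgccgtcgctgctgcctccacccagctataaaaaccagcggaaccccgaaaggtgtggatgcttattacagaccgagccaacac
Nkx6-2, chr7:139582748-139583047, minus strand: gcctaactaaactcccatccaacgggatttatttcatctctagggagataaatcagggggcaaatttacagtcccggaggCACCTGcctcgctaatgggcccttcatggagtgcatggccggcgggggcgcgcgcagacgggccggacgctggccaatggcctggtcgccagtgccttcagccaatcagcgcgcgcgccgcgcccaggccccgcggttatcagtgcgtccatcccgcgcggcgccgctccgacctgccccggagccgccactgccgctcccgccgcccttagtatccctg
The Nkx2-2 promoter held 3 E-boxes, which began 220, 197 and 173 bases before the start site, and ACAAT 229 bases before it. The Olig2 promoter held ATTGT, the reverse complement of ACAAT, 67 bases before the start and no CANNTG. The Nkx6-2 promoter held 1 E-box, 170 bases before the start. Of the 32851 promoters of this length in the table, 72.3% held the E-box, 31.0% the shorter of the SOX motifs and 18.7% the longer one. The E-box reads the same on both strands, and the 2 SOX motifs share their first 4 letters. Of the 9 factors 6 had an entry, and Myrf, Sox10 and Olig1 had none.

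RNA was measured by 3′ tag sequencing, in which each read comes from near the end of a transcript and counts do not grow with transcript length. Total counts per well ran from 1184609 to 1817028, and levels are given as CPM, counts scaled to the normalised library size. In bulk wells, fewer cells of a type and less RNA per cell cannot be told apart. The summed level of 9 markers of mature oligodendrocytes, such as Mbp and Mag, lay between 6684 and 8942 CPM in control wells, with no marker at 0. Replicate 1 of the 30 mM group stood apart. Its sum was 15870 CPM against 9307 to 9794 CPM in the other 5 wells at 30 mM, and it was the highest well of its group for 6 of the 9 factors and the lowest for Tcf7l2. Fold changes of the 9 factors at 30 mM, and the counts of each list below, are therefore given with and without it.

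At 30 mM ethanol 3 of the 9 factors passed the test. Myrf rose about 1.51-fold, and Olig1 and Nkx2-2 fell, to 0.843 and 0.750 of the control level. Olig2, Sox10, Sox8, Zfp488, Tcf7l2 and Nkx6-2 did not pass. Among all genes tested at 30 mM 9.67% passed, 3.02% higher and 6.65% lower. The median log2 fold change of the 9 factors was 0.09, against 0.02 over all 13235 genes tested. For 0 of the 9 factors did all wells at 30 mM lie on one side of all control wells, which 4.10% of all genes did. Without replicate 1 of the 30 mM group 4 of the 9 passed, Tcf7l2 being added, and 11.5% of all genes passed in that fit.

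**Figure D1:**
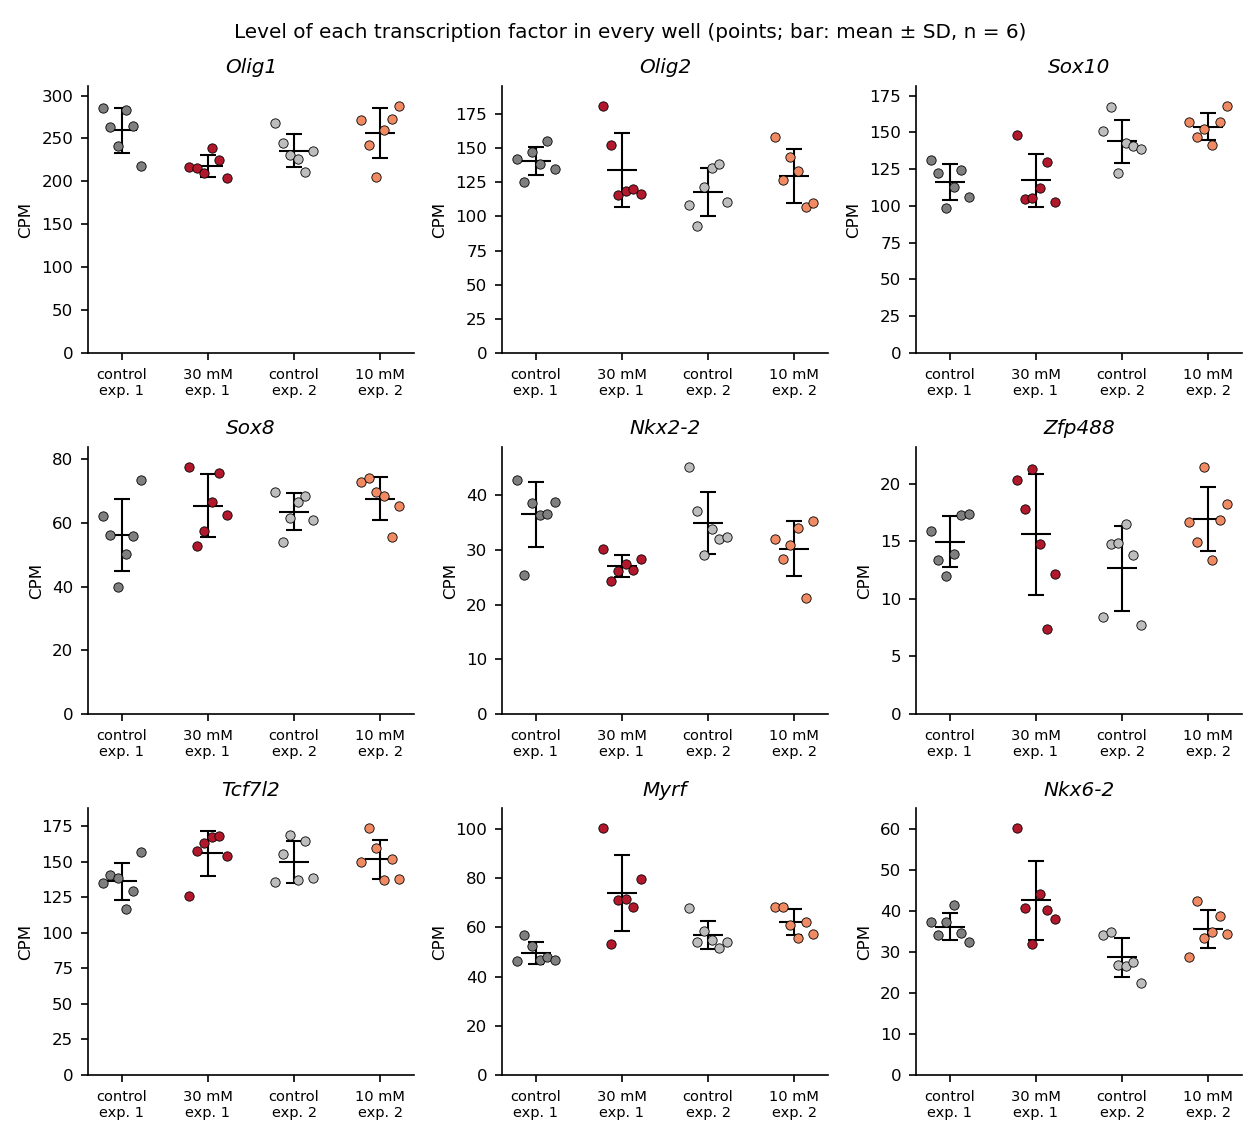
Level of each of the 9 transcription factors in CPM (vertical axes, from 0) in the 24 wells, by group (horizontal axes). Each point is a well and each bar a mean ± SD (n = 6). Myrf in the 30 mM wells runs from 53.3 to 100.4 CPM and 5 of the 6 lie above every control well of experiment 1, while Olig1 at 30 mM runs from 203 to 239 CPM and 4 of the 6 lie below every control well.

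Among the 2 factors of lineage specification, Olig1 differed at 30 mM and Olig2 did not pass. Olig1, which supports the maturation of oligodendrocytes, lay at 218, 265 and 286 CPM (lowest, median, highest) in the controls of experiment 1 and at 203, 216 and 239 CPM at 30 mM. The groups overlapped, and 4 of the 6 wells at 30 mM lay below every control well, with all 6 below the control median. Its mean fell from 259 ± 26.0 to 218 ± 12.4 CPM (SD, n = 6), and its log2 fold change was -0.25 (edgeR adjusted p = 0.0159, SE 0.0690). Without replicate 1 the value was -0.24 (edgeR adjusted p = 0.0171). The call was lost when replicate 3 or 6 of the 30 mM group or replicate 1 or 4 of its controls was left out, with an adjusted p of at most 0.0602. Olig2, the factor that specifies the lineage, lay at 125, 140 and 155 CPM in the controls and at 115, 120 and 181 CPM at 30 mM. Here 4 wells at 30 mM were below every control well, while replicates 1 and 2, at 181 and 153 CPM, were above the control median. Its log2 fold change was -0.05 (95% interval -0.23 to 0.13, edgeR adjusted p = 0.797), and -0.155 without replicate 1 (edgeR adjusted p = 0.219).

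Neither SoxE factor passed at 30 mM. Sox10, which binds the enhancers of many myelin genes, lay at 98.8, 118 and 131 CPM in the controls and at 103, 109 and 149 CPM at 30 mM. The wells overlapped almost throughout, and the log2 fold change of 0.03 (95% interval -0.15 to 0.21, edgeR adjusted p = 0.892) became -0.06 without replicate 1. Sox8, a close relative whose role overlaps that of Sox10, lay at 39.9, 56.1 and 73.6 CPM in the controls and at 52.7, 64.4 and 77.6 CPM at 30 mM. In this case 5 of the 6 wells at 30 mM were above the control median, 2 of them above every control well. The log2 fold change of Sox8 was 0.24 (95% interval -0.0033 to 0.47, edgeR adjusted p = 0.220), and 0.176 without replicate 1.

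Of the 3 differentiation factors, Nkx2-2 passed at 30 mM. Nkx2-2, a homeodomain factor of cells on the way from precursor to oligodendrocyte, lay at 25.5, 37.6 and 42.8 CPM in the controls and at 24.4, 26.8 and 30.2 CPM at 30 mM. Every well at 30 mM was below the control median, and the overlap came from replicate 2 of the controls at 25.5 CPM, since the other 5 control wells ran from 36.4 to 42.8 CPM. Its mean fell from 36.5 ± 5.86 to 27.1 ± 2.01 CPM (SD, n = 6), and its log2 fold change was -0.41 (edgeR adjusted p = 0.0434, SE 0.136). The call held in 2 of the 12 fits that left out 1 well, those without replicate 1 at 30 mM (-0.45, edgeR adjusted p = 0.0337) or without replicate 2 of the controls (edgeR adjusted p = 0.0126), and the adjusted p rose to at most 0.112 in the others.

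Zfp488, a zinc finger protein that works with OLIG2, had the fewest counts of the 9, with 9 to 33 counts in a well of experiment 1. It lay at 12.0, 14.9 and 17.4 CPM in the controls and at 7.40, 16.3 and 21.3 CPM at 30 mM. The wells at 30 mM spread on both sides of the controls, 3 above all of them and 1 below, and the log2 fold change was 0.09 (95% interval -0.34 to 0.52, edgeR adjusted p = 0.842), or -0.00244 without replicate 1. Tcf7l2, an effector of Wnt signalling that marks newly formed oligodendrocytes, lay at 117, 137 and 157 CPM in the controls and at 126, 160 and 168 CPM at 30 mM. Of the wells at 30 mM, 4 were above every control well, and replicate 1 was the lowest at 126 CPM, with the other 5 between 154 and 168 CPM. The log2 fold change was 0.20 (95% interval 0.03 to 0.37, edgeR adjusted p = 0.120). Tcf7l2 passed without replicate 1 of the 30 mM group (0.27, edgeR adjusted p = 0.0184) and without replicate 6 of the controls (edgeR adjusted p = 0.049).

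The largest change among the 9 was that of Myrf, a membrane-bound factor that is cut to release its DNA-binding part and is needed for myelin gene expression. Myrf lay at 46.3, 47.4 and 56.9 CPM in the controls of experiment 1 and at 53.3, 71.4 and 100.4 CPM at 30 mM. All 6 wells at 30 mM were above the control median and 5 were above every control well. The groups overlapped through replicate 2 of each, at 53.3 CPM with 30 mM ethanol and 56.9 CPM without. Mean Myrf rose from 49.5 ± 4.31 to 74.0 ± 15.5 CPM (SD, n = 6), and its log2 fold change was 0.59 (95% interval 0.36 to 0.82, edgeR adjusted p = 0.000332, SE 0.114). Without replicate 1, its highest well, the log2 fold change was 0.47 (edgeR adjusted p = 0.00205), and Myrf passed in all 12 fits that left out 1 well. Nkx6-2, found in mature oligodendrocytes, lay at 32.4, 36.0 and 41.6 CPM in the controls and at 31.9, 40.6 and 60.4 CPM at 30 mM. In 5 of the 6 wells at 30 mM it was above the control median, and replicate 1 was the highest. Its log2 fold change was 0.25 (95% interval -0.01 to 0.51, edgeR adjusted p = 0.226), and 0.12 without replicate 1. Nkx6-2 passed with the log2 total count as a covariate (0.38, edgeR adjusted p = 0.0493).

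**Figure D2:**
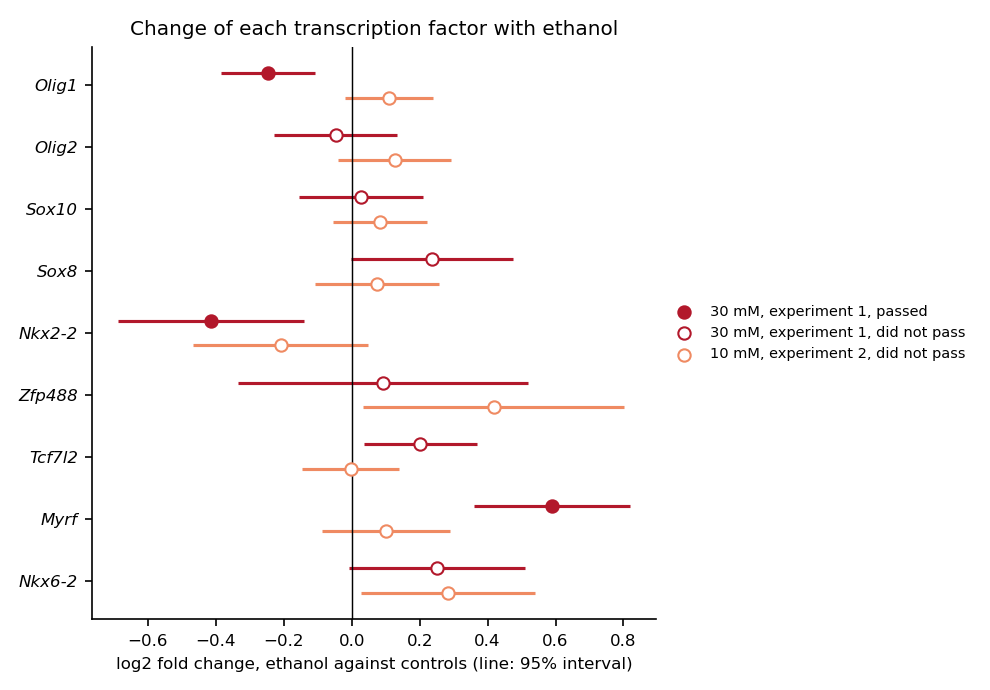
Log2 fold change (horizontal axis) of each of the 9 factors with 30 mM ethanol in experiment 1 and with 10 mM in experiment 2, each against its own controls; lines are 95% intervals from 6 wells a group. Filled points passed at an adjusted p under 0.05: Myrf at 0.59, Olig1 at -0.25 and Nkx2-2 at -0.41, all at 30 mM.

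Counts were deposited without a statement on strand, so reads of a gene and of an antisense gene that shares exon bases with it cannot be told apart. Such a neighbour overlaps Olig1 (Gm15966, 9 to 24 counts in a well), Nkx2-2 (Nkx2-2os, 0 to 7 counts), Nkx6-2 (Inpp5a, 1 to 11 counts) and Sox8 (2810468N07Rik, 57 to 168 counts) in the GENCODE M21 annotation.

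At 10 mM ethanol 0 of the 9 factors passed, and among all genes tested 0.657% did. At an unadjusted p under 0.05 there were 2 of the 9, Zfp488 and Nkx6-2, as there were 10.1% of all genes, and DESeq2 and limma voom also called 0. Zfp488 lay at 7.71, 14.3 and 16.5 CPM in the controls of experiment 2 and at 13.3, 16.8 and 21.5 CPM at 10 mM. In 4 of the 6 wells at 10 mM Zfp488 was above every control well, and its log2 fold change was 0.42 (95% interval 0.03 to 0.80, edgeR adjusted p = 0.455). Nkx6-2 lay at 22.4, 27.2 and 34.8 CPM in the controls and at 28.9, 34.8 and 42.4 CPM at 10 mM, with all 6 wells above the control median. Its log2 fold change was 0.28 (95% interval 0.03 to 0.54, edgeR adjusted p = 0.439).

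The 3 factors that passed at 30 mM did not pass at 10 mM. Myrf lay at 51.6, 54.5 and 67.7 CPM in the controls of experiment 2 and at 55.6, 61.7 and 68.4 CPM at 10 mM. All 6 wells at 10 mM were above the control median and 2 above every control well, with a log2 fold change of 0.10 (95% interval -0.09 to 0.29, edgeR adjusted p = 0.784). Olig1 lay at 211, 233 and 268 CPM in the controls and at 205, 265 and 288 CPM at 10 mM. Its wells at 10 mM were above the control median in 5 of 6 cases, the opposite side from 30 mM, and its log2 fold change was 0.11 (95% interval -0.02 to 0.24, edgeR adjusted p = 0.597). Nkx2-2 lay at 29.0, 33.0 and 45.2 CPM in the controls and at 21.2, 31.4 and 35.2 CPM at 10 mM, with 4 of the 6 wells below the control median. Its log2 fold change was -0.21 (95% interval -0.47 to 0.05, edgeR adjusted p = 0.617).

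None of the other 4 factors passed at 10 mM. Olig2 lay at 93.3, 116 and 139 CPM in the controls and at 107, 130 and 158 CPM at 10 mM, a log2 fold change of 0.13 (95% interval -0.04 to 0.29). Sox10 lay at 122, 142 and 167 CPM in the controls and at 141, 155 and 168 CPM at 10 mM, a log2 fold change of 0.08 (95% interval -0.06 to 0.22). The wells of both groups overlapped for each of these factors. Sox8 lay at 54.1, 64.1 and 69.7 CPM in the controls and at 55.7, 69.1 and 74.0 CPM at 10 mM, a log2 fold change of 0.08 (95% interval -0.11 to 0.26). Tcf7l2 lay at 136, 147 and 169 CPM in the controls and at 137, 151 and 174 CPM at 10 mM, a log2 fold change of -0.0032 (95% interval -0.15 to 0.14).

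**Figure D3:**
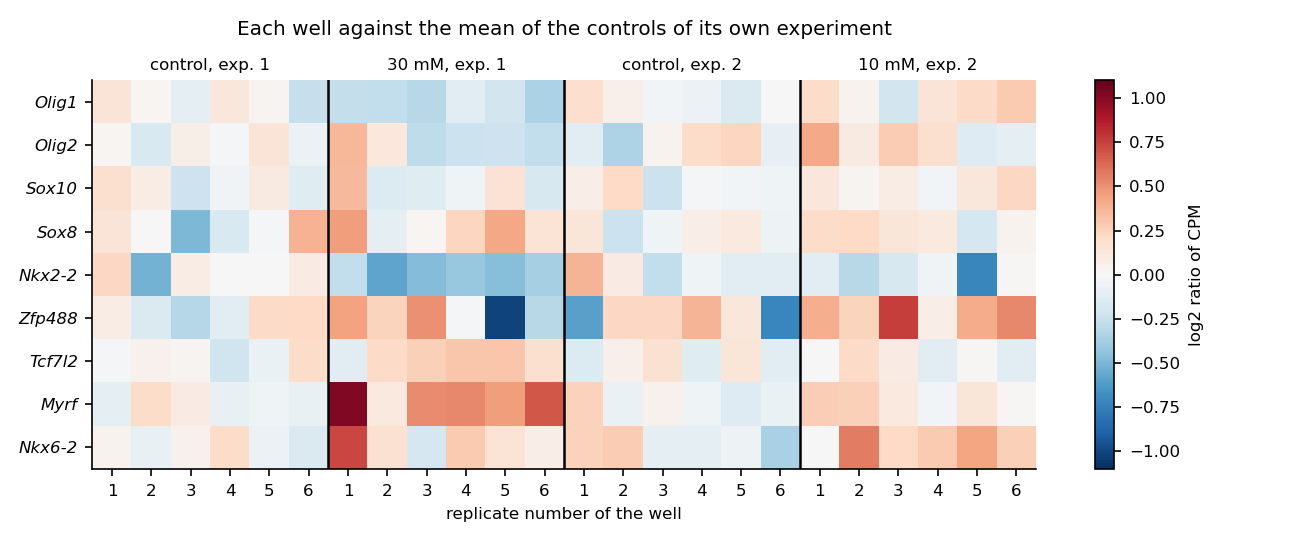
Log2 ratio of CPM (colour) of each factor (rows) in each well (columns, by replicate number) to the mean of the control wells of the same experiment. Nkx2-2 is below that mean in all 6 wells at 30 mM, and Myrf is above it in all 6, most in replicate 1 at 100.4 CPM. Replicate 2 of the controls of experiment 1, at -0.518 for Nkx2-2 and 0.201 for Myrf, overlaps the wells at 30 mM for both.

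The difference between both ethanol responses was tested over all 24 wells as an interaction, that is the log2 fold change at 30 mM minus that at 10 mM. Of the 9 factors 1 passed, Olig1, and 3.28% of all genes tested did. Olig1 was at -0.25 with 30 mM and at 0.11 with 10 mM, and the difference was -0.37 (edgeR adjusted p = 0.0256, SE 0.101). Myrf was at 0.59 and 0.10, and its difference of 0.48 (95% interval 0.18 to 0.78, edgeR adjusted p = 0.0597, SE 0.15) did not pass. For Nkx2-2 the difference was -0.22 (95% interval -0.59 to 0.16, edgeR adjusted p = 0.588), so its values at both doses were not shown to differ. Tcf7l2, at 0.20 and -0.0032, had a difference of 0.19 (95% interval -0.03 to 0.42, edgeR adjusted p = 0.375). The other 5 factors had differences from -0.33 for Zfp488 to 0.15 for Sox8, none of which passed. The call of Olig1 was lost with the log2 total count as a covariate (edgeR adjusted p = 0.0905) and without replicate 4 of the controls of experiment 1, replicate 5 of the controls of experiment 2 or replicate 6 of the 10 mM group. Myrf passed without replicate 2 of the 30 mM group (edgeR adjusted p = 0.0175).

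Wells without ethanol also differed between the experiments, which are the batches. Of the 9 factors 3 passed, and so did 43.6% of all genes tested, so a call of this kind was common. Sox10 was lower in the controls of experiment 1 than of experiment 2, at 116 ± 12.2 against 144 ± 14.9 CPM (SD, n = 6), and its log2 fold change was -0.34 (edgeR adjusted p = 0.000190, SE 0.0763). Olig2 was higher in experiment 1, at 140 ± 10.3 against 118 ± 17.4 CPM, a log2 fold change of 0.23 (edgeR adjusted p = 0.0139, SE 0.0781). Nkx6-2 was also higher there, at 36.2 ± 3.23 against 28.8 ± 4.81 CPM, with a log2 fold change of 0.31 (edgeR adjusted p = 0.0453, SE 0.130), and it passed in 5 of the 12 fits that left out 1 well. None of the 9 had control wells of one experiment all on one side of the other, which 18.9% of all genes had. With libraries scaled by their total count only, Sox10 still passed (-0.39), while Olig2 (0.17, edgeR adjusted p = 0.0644) and Nkx6-2 (0.25, edgeR adjusted p = 0.104) did not. Nkx6-2 also did not pass in DESeq2 (adjusted p = 0.0956) or with the log2 total count as a covariate, where its value was 0.19 (edgeR adjusted p = 0.378). Olig2 also did not pass without replicate 2 of the controls of experiment 2 (0.17, edgeR adjusted p = 0.0706).

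By mean CPM over the 4 groups, Myrf was highest at 30 mM, then at 10 mM, in the controls of experiment 2 and in those of experiment 1, and Tcf7l2 had the same order. Sox8 was highest at 10 mM and lowest in the controls of experiment 1. Olig1 and Nkx2-2 were highest in the controls of experiment 1 and lowest at 30 mM. Olig2 and Nkx6-2 were lowest in the controls of experiment 2, and Zfp488 likewise, while Sox10 was lowest in the controls of experiment 1. Neighbours in these orders overlapped in their wells for every factor.

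The ratio of each factor to Sox10 in the same well compares factors without the library size, a scale chosen after the data were seen and given with no test. Myrf stood at a median of 0.661 tags per Sox10 tag at 30 mM (0.516 to 0.775) and at 0.434 (0.359 to 0.538) in its controls. The ranges met only between 0.516 and 0.538. Olig1 stood at 1.97 (1.45 to 2.11) at 30 mM against 2.15 (2.04 to 2.48), and Nkx2-2 at 0.248 (0.210 to 0.287) against 0.331 (0.216 to 0.399). At 10 mM Myrf stood at 0.404 against 0.393 and Olig1 at 1.71 against 1.63. No factor separated the wells at 30 mM from their controls on this scale, which 1.46% of all genes did, nor at 10 mM, where 0.761% did. Between the control groups Olig1, Olig2 and Nkx6-2 separated all wells, all with more tags per Sox10 tag in experiment 1, and so did 23.9% of all genes. Sox10 itself was lower in experiment 1, which raises every ratio there, and the mean log2 ratio was higher in experiment 1 for all 8 other factors. By CPM Olig1 did not pass between the controls (0.11, edgeR adjusted p = 0.148) and none of the 9 separated them. Olig1 had medians of 2.15 and 1.63, Olig2 of 1.23 and 0.876 and Nkx6-2 of 0.304 and 0.209 in experiments 1 and 2.

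**Figure D4:**
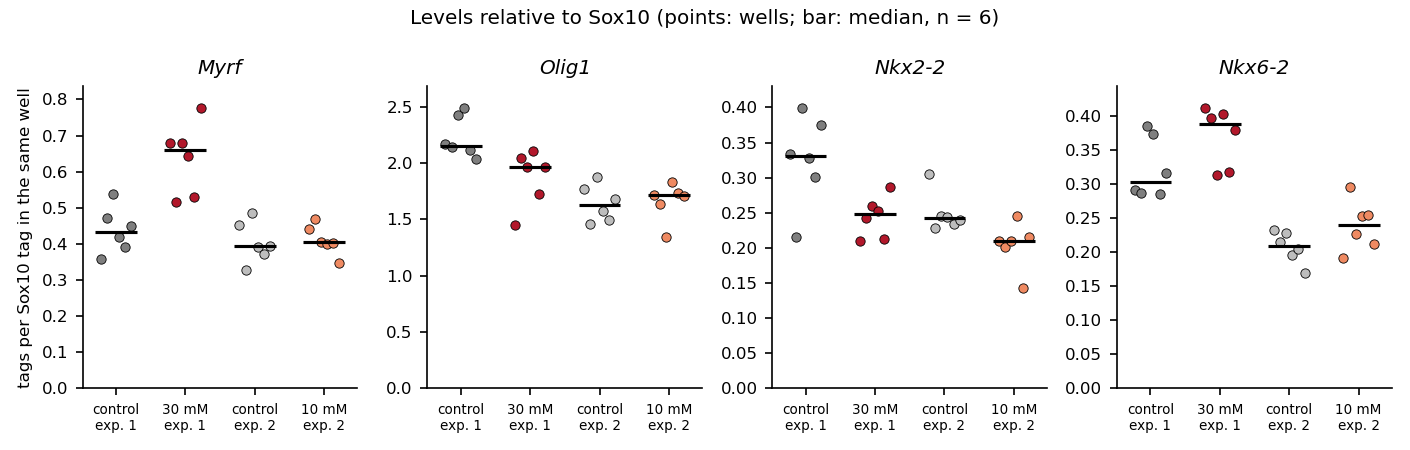
Tags of Myrf, Olig1, Nkx2-2 and Nkx6-2 per Sox10 tag of the same well (vertical axes, from 0) in the 4 groups of 6 wells; bars are medians. For Myrf the 30 mM wells have a median of 0.661 and their controls one of 0.434, and for Olig1 and Nkx6-2 the controls of experiment 1 lie above those of experiment 2 without overlap.

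Genes that these factors act on or work with were taken as 5 lists. The first held myelin genes known to be acted on by SOX10 or MYRF and other genes of maturing oligodendrocytes. Of its 16 genes 15 were tested at 30 mM, 9 were higher and 0 lower, where 3.02% of all genes tested were higher. The median log2 fold change of the list was 0.41, against 0.02 over all genes. Mal, a myelin proteolipid, rose by 0.78 on the log2 scale (edgeR adjusted p = 1.55e-06, SE 0.110), from a median of 174 CPM (167 to 198) to 270 CPM (234 to 509). Mobp, a basic protein of oligodendrocyte myelin, rose by 0.63, Mag, a myelin glycoprotein, by 0.59 and Mbp, the major myelin basic protein, by 0.44. Cldn11, the tight junction protein of myelin, rose by 0.43, Dusp15, a phosphatase that MYRF induces, by 0.43 and Cnp, a myelin phosphodiesterase, by 0.35. The highest well at 30 mM was far above the next for several of them: 1508 against 833 CPM for Mobp and 941 against 529 CPM for Mag. Without replicate 1, 7 of the 15 passed, all higher, with a median of 0.23, and Dusp15 did not pass (0.34, edgeR adjusted p = 0.0796). Without that well 11.5% of all genes tested passed in either direction.

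At 10 mM 3 of the 15 were higher, as were 0.391% of all genes tested, and 0 lower, with a median log2 fold change of 0.17, against -0.0023 over all genes. Mal rose by 0.38 (edgeR adjusted p = 0.000185, SE 0.0649), Mag by 0.36 and Cnp by 0.25, and these 3 passed at both doses. In the joint fit of 24 wells Mag still passed at 10 mM, while Mal (0.39, edgeR adjusted p = 0.0784) and Cnp (0.26, edgeR adjusted p = 0.136) did not. All 6 wells at 10 mM lay above all controls for Mal, at 229 to 264 against 158.5 to 211 CPM, and for Mag, at 514 to 561 against 331 to 509.5 CPM. Such a separation, in either direction, held for 0.813% of all genes and for 0 of the 9 factors. Myrf at this dose had a log2 fold change of 0.10 and did not pass. In the test of the difference between doses Mobp (0.46, edgeR adjusted p = 0.0201) and Mbp (0.36, edgeR adjusted p = 0.0363) passed, and without replicate 1 of the 30 mM group they fell to 0.23 (edgeR adjusted p = 0.0981) and 0.19 (edgeR adjusted p = 0.159), with 0 of the 15 genes passing. Of the 24 fits that left out 1 well the call of Mobp held in 21 and that of Mbp in 7. In DESeq2 neither passed (adjusted p = 0.15 for Mobp and 0.164 for Mbp), and Mbp did not pass with no low-count filter (edgeR adjusted p = 0.101).

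**Figure D5:**
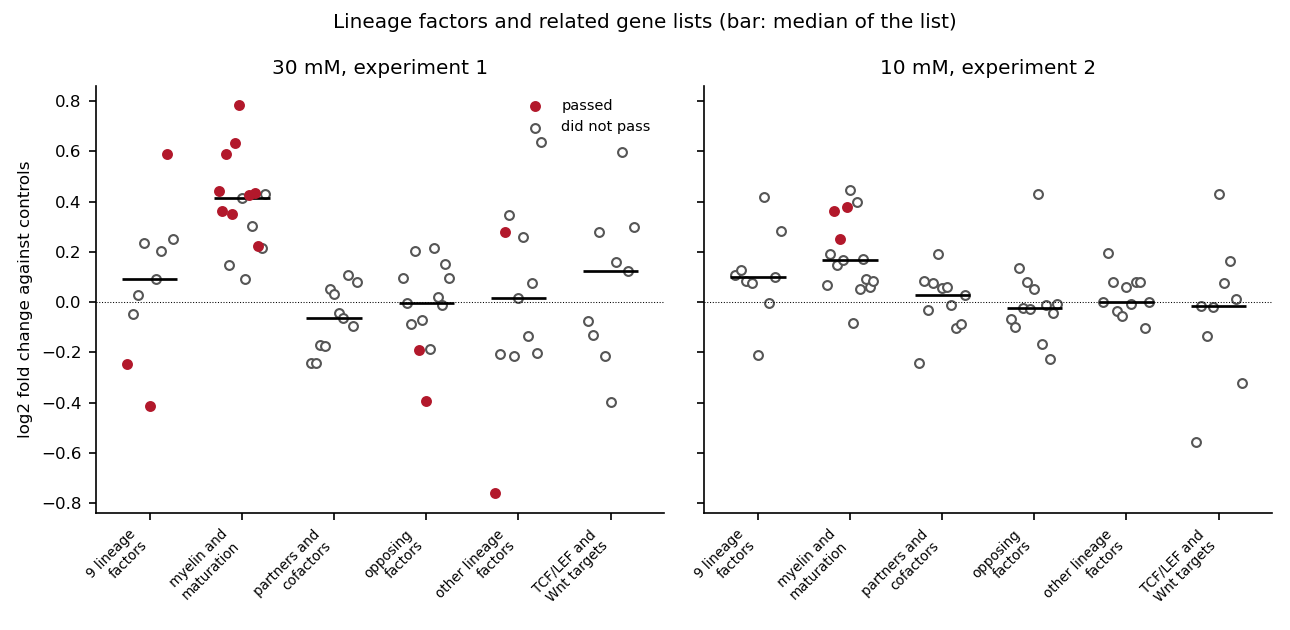
Log2 fold change (vertical axis) at 30 mM and at 10 mM of the 9 factors and of the tested genes in 5 related lists; each point is a gene, filled where it passed, and bars are medians. The list of myelin genes has a median of 0.41 at 30 mM and 0.17 at 10 mM.

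In each of the other lists between 0 and 2 genes passed at 30 mM, where 9.67% of all genes did. Between 0 and 3 passed without replicate 1 of the 30 mM group, where 11.5% of all genes did. Among partners and cofactors, such as the chromatin remodellers Smarca4 and Chd7 and the histone deacetylases, 0 of 11 tested passed at either dose, and their median log2 fold change was -0.06 at 30 mM and 0.03 at 10 mM. Without that well Smarca4 passed, lower, at 30 mM (-0.20, edgeR adjusted p = 0.0428) and in the difference between doses (-0.31, edgeR adjusted p = 0.0337). Of 13 factors that oppose differentiation 2 fell at 30 mM. Hes1, a Notch effector that holds precursors back, fell by 0.39 on the log2 scale (edgeR adjusted p = 0.00986, SE 0.104), from 58.7 ± 6.05 to 44.7 ± 2.70 CPM (SD, n = 6) with no overlap of wells. Sox4, which represses myelination, fell by 0.19 (edgeR adjusted p = 0.0424), and this call held in 4 of the 12 fits that left out 1 well. Both passed without replicate 1 of the 30 mM group, and Sox9, a SoxE factor of glial progenitors and astrocytes, then passed too, higher (0.22, edgeR adjusted p = 0.0363). At 10 mM 0 of the 13 passed, and Sox4 differed between the doses (-0.28, edgeR adjusted p = 0.0443), a call that held in 9 of 24 such fits.

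Among 11 other transcription factors of the lineage tested at 30 mM, Myt1, a zinc finger protein of precursors and differentiating cells, fell by 0.76 on the log2 scale (edgeR adjusted p = 0.0114, SE 0.205), from 21.3 ± 5.21 to 12.4 ± 2.97 CPM (SD, n = 6). Zfp536 was higher by 0.28 (edgeR adjusted p = 0.0495), and passed in 3 of the 12 fits that left out 1 well. Without replicate 1 of the 30 mM group Myt1 still passed (-0.76), Zfp536 did not, and Nkx6-1 (0.76, edgeR adjusted p = 0.0382) and Creb5 (0.33, edgeR adjusted p = 0.0458) were higher. At 10 mM 0 of the 11 passed. Of 9 relatives of Tcf7l2 and Wnt target genes 0 passed at either dose, nor at 30 mM without that well. Nkd1, a Wnt target that restrains the pathway, stood at -0.40 with 30 mM and 0.43 with 10 mM, and the difference of -0.84 (edgeR adjusted p = 0.0283, SE 0.234) passed. This call held in 23 of the 24 fits that left out 1 well, but DESeq2 gave Nkd1 no adjusted p and did not call it. Nkd1 was also higher in the controls of experiment 1 than of experiment 2 (0.45, edgeR adjusted p = 0.0208). In the controls of experiment 1 against experiment 2, 10 of the 13 opposing factors passed (7 higher, 3 lower), as did 7 of the 9 Wnt genes, 5 of 15 myelin genes, 5 of 11 partners and 3 of 12 other lineage factors, where 43.6% of all genes did. The last 3 counts are near or below that share.

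Markers of other cells moved with the groups, and their part in the results above was not tested. The 7 astrocyte markers summed to 3308 to 4177 CPM in the controls of experiment 1 and to 4551 to 5766 CPM at 30 mM, and 5 of the 7 were higher. The 9 markers of mural cells and fibroblasts summed to 701 to 972 CPM and to 303 to 407 CPM at 30 mM, and 6 of the 9 were lower. The markers did not move alike. Mean Acta2, the highest of them, was 369 CPM in the controls and 122 CPM at 30 mM. Pdgfrb was at 18.3 and 17.2 CPM, Lum at 11.3 and 10.3 CPM and Rgs5 at 17.7 and 20 CPM. The groups did not overlap for either list at 30 mM. Among all genes tested at this dose 3.02% passed higher and 6.65% lower. Without replicate 1 of the 30 mM group 4 of the 7 astrocyte markers were higher and 6 of the 9 mural and fibroblast markers lower. In that fit 11.5% of all genes passed in either direction. In the test of the difference between doses 3 of the 7 astrocyte markers passed, higher (Aqp4 at 0.60, Gja1 at 0.48 and Gfap at 0.37). Of the 9 mural and fibroblast markers 3 passed, lower (Acta2 at -1.43, Cnn1 at -1.16 and Col1a1 at -0.79), and 3 had a difference above 0. Among all genes 3.28% passed this test in either direction. The 8 microglia markers summed to 144 to 241 CPM in the controls and 149 to 247 CPM at 30 mM, against 1423 to 1708 and 1524 to 1954 CPM in experiment 2. Of those tested 1 of 5 passed at 30 mM and 1 of 6 at 10 mM, both higher. At 10 mM astrocyte sums overlapped their controls, at 3642 to 4405 against 3712 to 3995 CPM. Mural and fibroblast sums also overlapped, at 367 to 408 against 390 to 519 CPM, with 2 of the 8 tested lower. At that dose 0.657% of all genes passed in either direction. The 4 endothelial markers summed to 25.9 to 48.05 CPM over the 24 wells. By group Pecam1 had a mean of 19.6 to 21.9 CPM, Flt1 of 12.1 to 18.4 CPM and Cdh5 of 1.99 to 3.36 CPM, and Cldn5 was at 0 in every well of 3 of the 4 groups. A count of 3 in a well stood for 1.67 to 2.5 CPM, so Cdh5 was near that level. Transcripts marking astrocytes, microglia and mural cells were thus present in the wells. Of the endothelial list this held for Pecam1 and Flt1, at a lower level, and endothelial cells were not shown by them alone.

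Cells of the lineage itself were followed with 3 further lists. The 5 markers of oligodendrocyte precursors, such as Pdgfra and Cspg4, summed to 582 to 635 CPM in the controls of experiment 1 and 503 to 634 CPM at 30 mM, and 0 of the 5 passed. The 5 markers of committed precursors, such as Bcas1 and Enpp6, summed to 643 to 824 and 731 to 870.4 CPM, and 0 of the 5 passed. The mature sum ran from 7254 to 8942 CPM in these controls against 9307 CPM and more at 30 mM, and from 6684 to 8561 against 8091 to 8953 CPM in experiment 2 at 10 mM. Both precursor lists were higher in the controls of experiment 2, at 692 to 745 and 904 to 1028 CPM. Of the factors that passed between the controls, Sox10 was also higher in experiment 2, while Olig2 and Nkx6-2 were lower there. The 7 neuron markers summed to 287 to 372 CPM in the controls of experiment 1 and 303 to 367 CPM at 30 mM. Of the 5 tested 1 was lower, as were 6.65% of all genes tested. In experiment 2 the neuron markers summed to 407 to 468 CPM in the controls and 446 to 481 CPM at 10 mM. At that dose 2 of the 5 tested passed, 1 higher and 1 lower, where 0.657% of all genes passed.

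The genes whose levels ran closest to a factor were found as the smallest mean absolute difference of log2 CPM over the 24 wells, each gene centred on its own mean, among 9634 genes (9635 for Zfp488). Closest to Myrf were Ogfod2 and Pacs2, both at 0.123, then Shisal1 at 0.137, against a median of 0.289 over genes. For Olig1 they were Psmc5 at 0.0723, Rpn2 and Wbp2, and among the 3 closest to Olig2 were Eef1b2 and Rpl22, both at 0.112. Nearest to Sox10 came Atp6v0b at 0.0819, Marcksl1 and Apbb1, and to Sox8 Proser1 at 0.131, Hook3 and Pknox1. For Nkx2-2 these were Srm at 0.130, Ncaph2 and Ccnd2, for Zfp488 Ambra1 at 0.202, Unc79 and Wrap53, and for Tcf7l2 Cwf19l2, Bicc1 and Prune2. Nkx6-2 ran closest to Smim7 at 0.121, Shisa4 and, at 0.130, the myelin gene Cnp. No factor was among the 3 genes closest to another. These distances describe 24 wells that share libraries and experiments, and they carry no test.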

How the data were processed

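Transcripts of 24 wells were counted by 3′ tag sequencing with single-end reads. The authors deposited raw counts per gene, whole numbers with 1 column per well. Per the submitters' processing notes, cutadapt 1.18, STAR and GRCm39 were used. The counter, annotation, use of strand and removal of PCR copies are not given in the sources used here. Symbols matched 52083 of the 55359 identifiers by a table of mouse gene names.

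Wells were grouped by treatment and batch in the labels, 6 per group. No pair of wells within a group agreed within sampling noise (chi-square per degree of freedom 1.07 to 2.88). The test was edgeR 4.0.16's quasi-likelihood test in R 4.3.3, with TMM normalization, filterByExpr at a minimum of 10 counts and Benjamini-Hochberg adjustment over all genes tested. A gene passed at an adjusted p under 0.05. Wells at one dose were compared with the controls of the same experiment, and the difference between doses as an interaction over 24 wells. The procedure was tested on simulated data. CPM used TMM-scaled libraries, and log2 CPM a prior count of 2. With the 1184609 to 1817028 counts of a well, counting error is largest for Zfp488.

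All 9 factors are named whether or not they pass. From each list up to 6 genes that passed, largest change first, and those that passed at both doses are named. Values of 2 genes that these rules cover are not reported here. The members and lists were chosen with earlier results of these data known. Alternatives were DESeq2 1.42.0, limma 3.58.1 voom, other normalizations, filters, covariates and thresholds, a replicate block and leaving out each well. Replicate numbers come from the descriptions. Most same-numbered wells of an ethanol group and its controls did not deviate together (correlations from -0.173 to 0.255). The highest value was that of replicate 6 in experiment 1.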

Additional observations from a re-analysis of the deposited data

Results flagged for a closer look

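Of 36 sets of 6 wells (9 factors in 4 groups) 2 held a well far from the others, where chance gives about 1.8. Nkx2-2 was at 25.5 CPM in replicate 2 of the controls of experiment 1, with the other 5 wells between 36.4 and 42.8 CPM. Tcf7l2 was at 126 CPM in replicate 1 of the 30 mM group, with the other 5 between 154 and 168 CPM.

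The log2 fold change at 30 mM minus that at 10 mM passed the interaction test in edgeR for Olig1 (-0.37, adjusted p = 0.0256) and for 4 genes of the 5 lists of related genes. These were Nkd1 (-0.84), Mobp (0.46), Mbp (0.36) and Sox4 (-0.28). Mobp and Mbp did not pass without replicate 1 of the 30 mM group or in DESeq2, and DESeq2 did not call Nkd1 either. Over the 24 fits that left out 1 well the call held in 23 for Nkd1, 21 for Mobp, 7 for Mbp and 9 for Sox4. Among markers of other cells 3 of 7 of astrocytes (higher) and 3 of 9 of mural cells and fibroblasts (lower) also passed this test, where 3.28% of all genes did. Dose and experiment cannot be told apart in these differences.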

How the results depend on the processing

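Of 819 values of the 9 factors under the alternatives, 747 kept their direction and side of the threshold, 33 lost a call, 17 gained one and 22 changed sign. Most of these values belong to results not called in the main test, which had no call to lose. Leaving out 1 well lost the call at 30 mM of Nkx2-2 in 10 of 12 fits, of Olig1 in 4 and of Myrf in 0. Between the controls that of Nkx6-2 was lost in 7 of 12, of Olig2 in 1 and of Sox10 in 0. In the difference that of Olig1 was lost in 3 of 24. Myrf and Olig1 passed at 30 mM under all 8 alternative normalizations, filters, tools and covariates, and Nkx2-2 under 5 of the 8, not with no low-count filter, DESeq2 or limma voom (adjusted p up to 0.0957). At 30 mM 1 factor, Myrf, passed at an adjusted p under 0.01, between 1 and 4 when 1 well was left out, and 4 with the log2 total count as covariate, Nkx6-2 being added (0.375, adjusted p = 0.0493). At 10 mM 0 passed in each of these. For the difference between doses 0 passed at an adjusted p under 0.01 or with the log2 total count as covariate, 2 with the total count only or at an adjusted p under 0.1, and 0 to 2 without 1 well. Between the controls 1 passed under 0.01, 6 under 0.1 and 2 to 6 without 1 well. Over all genes 4276 of 13479 passed under 0.01 there, and 5367 to 6250 passed without 1 well, with 13485 to 13816 tested. With the total count only, which put 40.1% of calls higher against 48.9%, 4 factors passed: Sox10, Sox8, Tcf7l2 and Myrf. With that scaling 5909 of 13479 genes passed.

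Log2 fold changes near 0 that changed sign were Sox10 at 30 mM with no filter (-0.0026), Olig2 at 30 mM with the total count covariate (0.0477), Nkx6-2 for the difference between doses with it (0.0824), and Nkx2-2 between controls with the total count only (-0.0275) or the covariate (-0.0139). Tcf7l2 at 10 mM was 0.0209 with no filter, 0.000222 in DESeq2, 0.00744 in the joint fit, 0.00228 with the replicate block and 0.0325 with the covariate. Leaving out 1 well gave -0.0561 to 0.0626 for Sox10 and -0.00244 to 0.229 for Zfp488 at 30 mM, -0.0395 to 0.0408 for Tcf7l2 at 10 mM, -0.201 to 0.0256 for Nkx6-2 in the difference and -0.0113 to 0.126 for Nkx2-2 between controls. The cause was not tested.

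Over all genes 1280 passed at 30 mM (641 under 0.01, 1186 with the covariate, 953 to 1563 without 1 well). At 10 mM 89 passed (28 under 0.01, 150 under 0.1, 21 in the joint fit, 37 to 95 without 1 well). For the difference 481 passed (173 under 0.01, 854 under 0.1, 307 with the covariate, 329 to 759 without 1 well). Replicate numbers did not pair the wells. Between any 2 groups compared, 1 of the 6 wells matched best with the well of its own number. With the replicate block 3, 0, 1 and 4 factors passed in the 4 comparisons, in the order of the report, and Tcf7l2 was the factor added between controls.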
